A study of Mus musculus with 3 samples.

Results

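A set of 9 transcriptional regulators that mark excitatory projection neurons of the cortex were followed in ribosome-bound RNA of a mouse interneuron driver line. They were taken by symbol: the deep-layer factors Fezf2, Tbr1, Tle4 and Bcl11b, the upper-layer factors Rorb, Cux1 and Cux2, and the pan-excitatory factors Neurod2 and Neurod6. These 9 genes are among 32531 symbols listed in each library, and all 9 were found. RNA came from the cerebral cortex of adult mice with both the Htr3a-Cre (NO176) driver and the Rosa26-LSL-EGFP/Rpl10a reporter. Cre removes the stop cassette for good, so a cell that expressed Cre at any time carries EGFP on its ribosomes, and anti-EGFP beads pull those ribosomes down (TRAP). The series has 1 group of 3 immunopurified libraries, replicates 1, 2 and 3, and all carry the driver and the reporter. Unpurified cortex was not analysed here, so levels could be compared between genes but not with the tissue. RNA of EGFP-carrying cells and RNA that stuck to the beads from other cells cannot be told apart. No label ties the replicates to separate animals, and the spread between them may be technical.

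Libraries held 14383545, 13951332 and 14461053 counts in genes, and the members had between 369 and 2506 counts in a library. The GABAergic genes Gad1, Gad2 and Slc32a1 had means of 234 TPM or more, where TPM is the count divided by exon length and then set to a common sum per library. Slc17a7, which loads glutamate into synaptic vesicles of most cortical excitatory cells, was present too, at 158, 170 and 260 TPM in replicates 1, 2 and 3. Vascular and microglial markers were low but mostly read: Cldn5 and C1qa had at most 3 counts in a library, while the microglial P2ry12 had 62, 30 and 42 and the mural Rgs5 had 238, 251 and 255. Means below are given ± SD (n = 3). In such bulk RNA, fewer cells of a type and less RNA per cell cannot be told apart.

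Projection neurons of the cortex acquire their layer identity through factors that repress one another. Fezf2 and its downstream gene Bcl11b specify neurons that project below the cortex, Tbr1 promotes corticothalamic identity and restrains Fezf2, and Tle4 is a Groucho-type co-repressor of corticothalamic neurons. Rorb, an orphan nuclear receptor, marks the granular input layer, and the homeodomain proteins Cux1 and Cux2 mark the layers above the deep ones. Neurod2 and Neurod6 are basic helix-loop-helix factors of differentiating excitatory neurons in all layers. Several of these genes are not exclusive to excitatory cells: Bcl11b is known in many cortical interneurons and in striatal projection neurons, and Cux1 is broadly expressed and its locus also encodes the Golgi protein CASP.

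Because these factors belong to families, the coding sequences of relatives were compared to see how far reads could be assigned to a single gene. The coding sequence of each gene's principal transcript in GENCODE M21 (GRCm38) is shown 5′ to 3′ around the longest stretch that is identical in both relatives, which is in capitals, with up to 20 flanking bases. The stretch is 68 bases in Tle4 and Tle1, 23 in Cux1 and Cux2, in Fezf2 and Fezf1 and in Bcl11b and Bcl11a, 20 in Rorb and Rora and 11 in Neurod2 and Neurod6.
Tle4: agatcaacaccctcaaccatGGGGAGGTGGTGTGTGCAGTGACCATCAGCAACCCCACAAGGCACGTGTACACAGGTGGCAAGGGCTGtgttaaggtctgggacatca
Tle1: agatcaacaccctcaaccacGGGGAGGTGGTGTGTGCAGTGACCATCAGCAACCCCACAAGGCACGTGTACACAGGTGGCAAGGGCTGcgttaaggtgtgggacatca
Cux1: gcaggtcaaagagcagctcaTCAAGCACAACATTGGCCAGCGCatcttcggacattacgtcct
Cux2: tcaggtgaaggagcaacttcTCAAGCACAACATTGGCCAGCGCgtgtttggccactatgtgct
Fezf2: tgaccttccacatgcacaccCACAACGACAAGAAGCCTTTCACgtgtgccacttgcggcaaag
Fezf1: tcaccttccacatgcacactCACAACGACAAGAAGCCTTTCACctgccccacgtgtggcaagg
Rorb: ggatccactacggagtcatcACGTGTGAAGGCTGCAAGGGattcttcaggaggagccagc
Rora: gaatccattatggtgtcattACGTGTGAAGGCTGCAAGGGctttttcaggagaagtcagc
Neurod2: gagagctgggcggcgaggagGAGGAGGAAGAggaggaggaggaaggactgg
Neurod6: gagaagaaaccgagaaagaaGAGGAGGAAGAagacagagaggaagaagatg
The stretch in Tle4 begins at base 1459 of its 2319 coding bases, and that in Rorb at base 76 of 1377. The read length behind the counts is not given in the sources used here. Alignments that were not unique stood on a line of their own and did not enter any gene's count.

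All 9 factors were present in every library, and 8 of them stood above the median gene on average, with Cux2 below it. The median of the 9 was 69.5, 62.4 and 69.2 TPM in replicates 1, 2 and 3, against 20.9, 22.8 and 23.4 TPM over the 12456 genes with a length and a mean of at least 1 CPM, the count scaled to library size without regard to length. By mean level the order was Fezf2, Tbr1, Neurod6, Tle4, Bcl11b, Neurod2, Rorb, Cux1 and Cux2. The 4 deep factors therefore held places above all 3 upper factors, and the pan-excitatory pair stood above the upper factors, with Neurod6 among the deep ones. Of the 8 pairs of neighbours in this order, only Cux1 and Cux2 passed the test (limma, adjusted p = 0.000227). For the other 7 the adjusted p ran from 0.275 to 0.912 (limma). Of these, Tbr1 over Neurod6 (log2 difference 0.16, SD 0.14), Neurod6 over Tle4 (0.13, SD 0.060) and Tle4 over Bcl11b (0.17, SD 0.072) kept their order in 3 of 3 libraries. These tests compare log2(TPM + 0.1) of each gene of the table with that of a reference member within each library, with p-values adjusted over all 12455 other genes. For each pair of members, the reference was the one later in the order Fezf2, Tbr1, Tle4, Bcl11b, Rorb, Cux1, Cux2, Neurod2, Neurod6. Each reference has its own fit, so a call can depend on which gene of a pair is the reference. Tests against one member share that member's values. Most genes differ in level from any given gene. In either direction, 87.8% of all genes were called against Fezf2, 89% against Tbr1, 89.1% against Tle4, 87.8% against Bcl11b and 77.1% against Rorb. The share was 83.8% against Cux1, 83.8% against Cux2, 82.7% against Neurod2 and 89.6% against Neurod6.

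**Figure D1:**
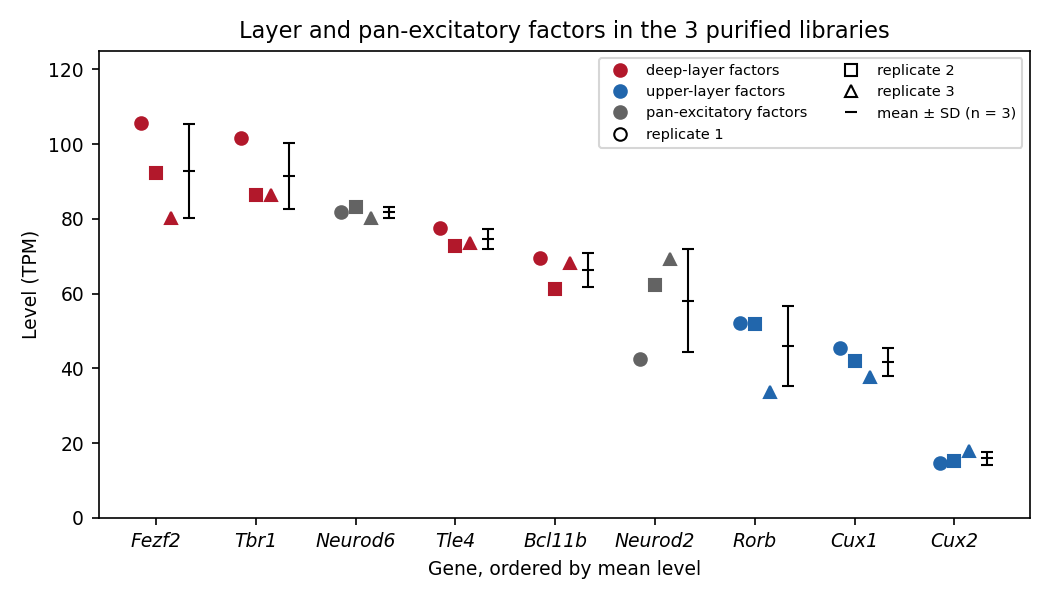
Level of each factor in TPM (y axis) in replicates 1 (circle), 2 (square) and 3 (triangle), with the mean and SD of the 3 libraries beside them in black. The deep-layer factors (red) lie between 61.1 and 106 TPM, and the upper-layer factors (blue) between 14.8 and 52.2 TPM.

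Fezf2, the zinc finger factor of subcortically projecting neurons, stood at 106, 92.4 and 80.3 TPM in replicates 1, 2 and 3 (92.8 ± 12.7), from 887, 792 and 707 counts. It lies on the minus strand of chromosome 14 from 12342094 to 12348189 (GRCm38), and its merged exons cover 3047 bases without overlap by another gene. Its highest library was replicate 1 and its lowest replicate 3. The relative Fezf1 was listed at 3.91 ± 0.793 TPM, from 21 to 33 counts, 23.3-fold below Fezf2 (limma, adjusted p = 8.37e-05), while 75.2% of all genes were called below Fezf2.

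Tbr1, the T-box factor of corticothalamic neurons, stood at 102, 86.3 and 86.5 TPM (91.5 ± 8.81), from 1537, 1332 and 1371 counts. The gene runs from 61802930 to 61814114 on the plus strand of chromosome 2. Its log2 difference from Fezf2 was 0.02 in favour of Fezf2 (SD 0.11), and the order of the genes differed between libraries, with Fezf2 above Tbr1 in 2 of 3. The related T-box genes were almost unread: Eomes, a factor of cortical progenitors, had 4, 8 and 11 counts, and Tbx21 had 1, 0 and 1, where 0 counts allow up to 0.215 CPM.

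Tle4 stood at 77.6, 72.7 and 73.5 TPM (74.6 ± 2.63), and its 3 libraries lay closer together than those of the other deep factors. The gene runs from 14448150 to 14598051 on chromosome 19. Of its family, the full-length co-repressors Tle1, Tle3 and Tle2 were lower, at 13.6 ± 0.989, 15.4 ± 0.533 and 1.43 ± 0.408 TPM, and Tle6 had 6, 10 and 2 counts. The short family member Aes, now also named Tle5, was higher at 96.6, 158 and 167 TPM, and its replicate 1 lay apart from the other two. Tle1 lay 5.47-fold below Tle4 (limma, adjusted p = 9.12e-05). Tle3 lay 4.81-fold below it (limma, adjusted p = 8.72e-05) and Tle2 49.9-fold (limma, adjusted p = 5.58e-05). Aes lay 1.83-fold above it (limma, adjusted p = 0.0160). These distances depend on the exon length used. With principal transcripts as length, the means were 218 TPM for Aes and 61.4 TPM for Tle4. Those of Tle3, Tle1 and Tle2 were then 33.5, 21.3 and 2.13 TPM. Among all genes, 72.3% were called below Tle4 and 16.8% above it.

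Bcl11b, a zinc finger factor also called CTIP2, was the lowest deep factor, at 69.5, 61.1 and 68.2 TPM (66.3 ± 4.50). Its position is 107910403 to 108003602 on chromosome 12. Its 1395 to 1598 counts were the most of any deep factor in each library, over 8111 exon bases. Bcl11a, its paralog with roles in upper and deep layers and in interneurons, stood at 37.6 ± 2.09 TPM, 1.76-fold below it (limma, adjusted p = 0.00344), as 69.2% of all genes were called. This order depends on the exon length used. With the longest transcript as length, Bcl11a was higher, at a mean of 62.7 TPM against 50.2 TPM for Bcl11b. With the principal transcript it was also higher, at 54.3 against 43.5 TPM. Among the deep factors, only 2 of 6 pairs were called: Fezf2 lay 1.39-fold above Bcl11b (adjusted p = 0.0302, limma) and Tbr1 lay 1.38-fold above it (adjusted p = 0.0240, limma), while 18.6% of all genes were called above Bcl11b. Both calls were lost without replicate 1 or without replicate 2, that of Tbr1 also without replicate 3. Without length correction both directions turned, to log2 differences of -0.93 and -0.10. Markers of striatal projection neurons, where Bcl11b is also expressed, gave values of their own beside it. Of the 9 listed, 7 reached 1 TPM in 3 of 3 libraries, their sum ran from 140 to 151 TPM, and the phosphodiesterase Pde10a (54.7 ± 10.6 TPM) and the phosphatase inhibitor Ppp1r1b (23.8 ± 1.61 TPM) led. The homeobox genes Six3 and Isl1 stayed under 1 TPM, with at most 9 counts in a library. The part of striatal RNA in the Bcl11b level was not tested.

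Rorb stood at 52.2 and 51.9 TPM in replicates 1 and 2 but at 33.6 TPM in replicate 3 (45.9 ± 10.7), with counts of 1594, 1619 and 1074. The gene spans 18930605 to 19111196 on chromosome 19, and 5 transcripts merge to 11076 exon bases. Its relative Rora, a broadly expressed receptor, was 3.37-fold higher at 153 ± 17.2 TPM (limma, adjusted p = 9.84e-07), and 21.9% of all genes were called above Rorb. With principal transcripts as length, the distance was larger, with means of 505 TPM for Rora and 35.9 TPM for Rorb.

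Cux1 had the most counts of the 9 genes, with 2506, 2362 and 2187, yet its length-corrected level was 45.4, 41.9 and 37.8 TPM (41.7 ± 3.80). The gene occupies 136248135 to 136567490 on chromosome 5, where 14 annotated transcripts merge to 20024 exon bases, 1.97% of them shared with another gene. Its longest transcript has 12862 bases, and with that length the mean was 49.2 TPM. Counts of the CASP transcript and of the homeodomain transcripts were not separable. Rorb and Cux1 differed by less than their spread (log2 difference 0.11, SD 0.25; limma, adjusted p = 0.521).

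Cux2, on the same chromosome from 121856366 to 122050102, was the lowest of the 9, at 14.8, 15.2 and 18.0 TPM (16.0 ± 1.74) from 411, 432 and 524 counts. Cux1 exceeded it 2.60-fold (limma, adjusted p = 0.000227) in 3 of 3 libraries. Rorb did so 2.81-fold (limma, adjusted p = 0.000447), also in 3 of 3. The adjusted p of Rorb against Cux2 was 0.0556 without moderation of the spread. Without length correction, Cux1 and Rorb remained above Cux2, by log2 differences of 2.37 and 1.63. At a percentile of 56.3 among 16653 genes with a length and a count, Cux2 was close to the middle of the table, while the other 8 factors lay between 74.0 and 86.4.

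Neurod6 varied least of the 9, at 81.8, 83.3 and 80.3 TPM (81.8 ± 1.48), from 485, 504 and 499 counts over 2150 exon bases on chromosome 6. Neurod2, on chromosome 11 from 98325415 to 98329648, stood at 42.6, 62.4 and 69.2 TPM (58.1 ± 13.8), with replicate 1 below the others. Neurod2 was below Neurod6 in 3 of 3 libraries, 1.44-fold on average (log2 difference -0.52, SD 0.37; limma, adjusted p = 0.0443), while 74.2% of all genes were called below Neurod6. With Neurod2 as the reference instead, this pair was not called. With Neurod6 as the reference, the call was lost when replicate 1 (-0.32) or replicate 2 (-0.58) was left out. The difference was 0.023 without length correction. Neurod1, the third of the group in the cortex, stood at 19.8 ± 1.70 TPM, 2.87-fold below Neurod2 (limma, adjusted p = 3.41e-06), as 63.3% of all genes were called, and 4.13-fold below Neurod6 (limma, adjusted p = 9.19e-05). Neurod4 had 0, 2 and 7 counts.

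Deep factors exceeded upper factors per exon length in every pair and library. The median of the 4 deep factors was 88.8, 79.2 and 76.9 TPM on the log scale, and that of the 3 upper factors 45.4, 41.9 and 33.6 TPM. The log2 difference was 0.97, 0.92 and 1.19 (mean 1.03, SD 0.15, n = 3), or 2.04-fold. This difference rests on the length correction: with CPM it was -0.11, where the exon lengths do not enter. As raw counts, the upper factors together had 0.868, 0.942 and 0.775 times the reads of the deep factors.

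Pair by pair, with the upper factor as the reference, 11 of 12 deep-minus-upper differences passed the test, all with the deep factor higher. Against Cux2 the deep factors were 4.13-fold (Bcl11b) to 5.75-fold (Fezf2) higher, with 4 of 4 called, beside 49.8% of all genes called above Cux2. Against Cux1 they were 1.59-fold (Bcl11b) to 2.21-fold (Fezf2) higher, again 4 of 4, beside 27.1% of all genes. Against Rorb, Fezf2 was 2.05-fold higher (adjusted p = 0.00444, limma), Tbr1 2.03-fold (adjusted p = 0.00509, limma) and Tle4 1.66-fold (adjusted p = 0.0476, limma), beside 21.9% of all genes. Bcl11b minus Rorb was 0.41, 0.23 and 1.02 on the log2 scale (SD 0.41) and did not pass with Rorb as the reference (limma, adjusted p = 0.135). With Bcl11b as the reference, 3 of 3 upper factors, Rorb among them, were called lower, beside 69.2% of all genes. In all 4 pairs with Rorb, replicate 3, where Rorb was low, gave the largest value. Tle4 minus Rorb lost its call without replicate 1 (0.81; limma, adjusted p = 0.0742) or replicate 2 (0.85; limma, adjusted p = 0.146). Bcl11b minus Cux1 lost its call without replicate 2 (0.73; limma, adjusted p = 0.0553).

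The upper factors differed from one another when length was left out. The 4 differences from Cux2 kept their direction and call with CPM, at log2 values from 0.80 (Fezf2) to 1.74 (Bcl11b). Without length, 32.2% of all genes were called above Cux2. All 4 differences from Cux1 turned, from -0.63 (Bcl11b) to -1.57 (Fezf2), and each was called in that direction, as 86.2% of all genes were. Those from Rorb lay between -0.83 (Fezf2) and 0.11 (Bcl11b), with Fezf2 alone called below Rorb, beside 74.1% of all genes. With the longest transcript in place of merged exons, the direction stayed the same in all 12 pairs, and Bcl11b minus Cux1 shrank to 0.03 (limma, adjusted p = 0.837).

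**Figure D2:**
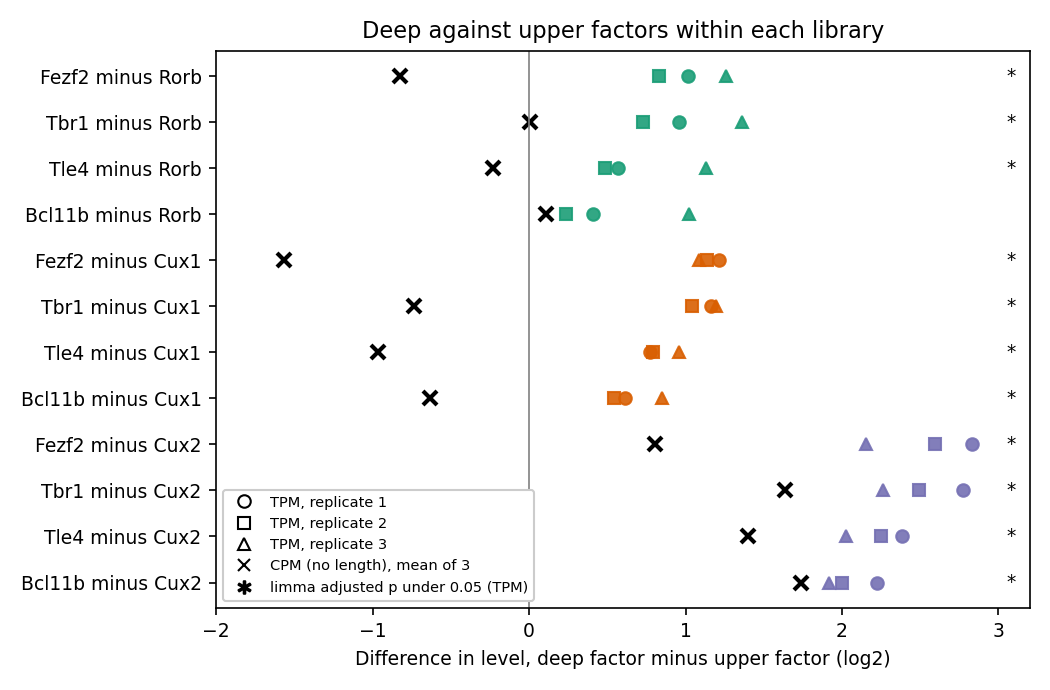
Log2 difference in level of each deep factor minus each upper factor (x axis) within replicates 1, 2 and 3, on the length-corrected scale, with the mean without length correction as a cross. Asterisks mark the 11 of 12 pairs past the limma threshold with the upper factor as the reference. All coloured points lie to the right of 0, whereas the crosses of the 4 pairs with Cux1, of Fezf2 minus Rorb and of Tle4 minus Rorb lie to the left.

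Relative to the pan-excitatory pair, 4 of 6 upper and 2 of 8 deep pairs passed the test with the pan-excitatory factor as the reference. Of 8 deep-minus-pan pairs, 2 passed, Fezf2 above Neurod2 by 1.62-fold (adjusted p = 0.0234, limma) and Tbr1 above it by 1.60-fold (adjusted p = 0.0259, limma), while 19.4% of all genes were called above Neurod2. With Fezf2 as the reference neither pan-excitatory factor was called, beside 87.8% of all genes in either direction. With Tbr1 as the reference 1 of them was called lower, beside 89% of all genes in either direction. Both calls against Neurod2 were lost without replicate 1 (0.39 and 0.39) or replicate 2 (0.76 and 0.79). Of 6 upper-minus-pan pairs, 4 passed with the upper factor lower: Rorb, Cux1 and Cux2 below Neurod6 and Cux2 below Neurod2. These counts are near the background, since 74.2% of all genes were called below Neurod6 and 63.3% below Neurod2. Cux2 lay 5.11-fold below Neurod6 (adjusted p = 7.89e-05, limma), Cux1 1.96-fold (adjusted p = 0.00113, limma) and Rorb 1.82-fold (adjusted p = 0.00680, limma). Rorb minus Neurod6 did not pass with an unmoderated spread (adjusted p = 0.0574, limma without moderation). With CPM, Rorb and Cux1 were above Neurod6 instead, by 1.50 and 2.24. Neurod6 has the shortest exons of the 9. In all, 22 of the 36 pairs among the 9 factors passed with the references used here. This is a smaller share than the 77.1% to 89.6% of all genes called against single members.

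Other layer factors spanned a wider range than the 7 members. Among 8 further deep factors, the LIM cofactor Ldb2 (140 ± 11.5 TPM) and the orphan receptor Nr4a2 (116 ± 16.7 TPM) were highest. The forkhead factor Foxp2 (5.97 ± 1.03 TPM) and the homeobox factor Otx1 (3.06 ± 0.497 TPM) were lowest. Among 8 further callosal or upper-layer factors, Mef2c (272 ± 16.7 TPM) and the LIM protein Lmo4 (158 ± 8.87 TPM) led, and the POU factors Pou3f2 (5.35 ± 1.41 TPM) and Pou3f1 (4.23 ± 0.805 TPM) were last. The median of these deep factors was below that of the upper ones, by log2 values of -0.10, -0.64 and -0.95 in replicates 1, 2 and 3 (mean -0.56, SD 0.43). Without length correction this difference turned, to 0.21. It also depends on the exon length used, here merged exons. With the longest transcript as length, the middle genes of the deep list had means of 41.3 and 54.3 TPM. Those of the upper list had means of 40.9 and 53.2 TPM. With members and further factors combined, 12 deep against 11 upper, the difference was 0.35 (SD 0.06), and -0.04 with CPM. Layer markers that are not factors gave -0.74, 0.06 and 0.11, so that replicate 1 stood apart. None of these list differences was tested.

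The deep layer markers spread widely. The complexin Cplx3 stood at 78.8, 101 and 130 TPM and the synaptotagmin Syt6 of corticothalamic neurons at 84.4 ± 2.59 TPM. Fam84b and Pcp4 lay far lower, at 3.29 ± 1.60 and 2.87 ± 0.818 TPM. Which cells gave the Cplx3 RNA was not tested. Exons of other genes overlap 41.7% of Fam84b and 23.7% of Pcp4. All 11 deep and all 7 upper markers reached 1 TPM in 3 of 3 libraries. The upper markers were led by the exchange factor Rasgrf2 at 133 ± 17.8 TPM and the endoplasmic reticulum protein Wfs1 at 50.4 ± 0.320 TPM. Otof and Cdh24 were lowest, at 4.33 ± 1.88 and 3.43 ± 1.90 TPM.

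Factors of cortical progenitors and of the pan-excitatory program differed widely in level. The repressor Zbtb18 stood at 93.4 ± 5.38 TPM. Emx1 had 3, 11 and 7 counts, and the proneural gene Neurog2 had 1 count in each library. Interneuron factors overlapped the 9 members in level: their 19 genes had medians of 65.2, 65.6 and 59.1 TPM, with Zeb2 (309 ± 51.6 TPM) and Prox1 (220.02 ± 43.1 TPM) at the top and Nkx2-1 (9.95 ± 3.66 TPM) and Sp8 (8.18 ± 0.970 TPM) at the bottom. Against Fezf2, 5 of these 19 were called higher and 10 lower, beside 12.6% and 75.2% of all genes. Against Cux2, 15 were higher and 3 lower, beside 49.8% and 34% of all genes. Of the 8 further deep factors, 5 were called above Cux2 and 2 below, and the same counts held for the 8 further upper factors.

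**Figure D3:**
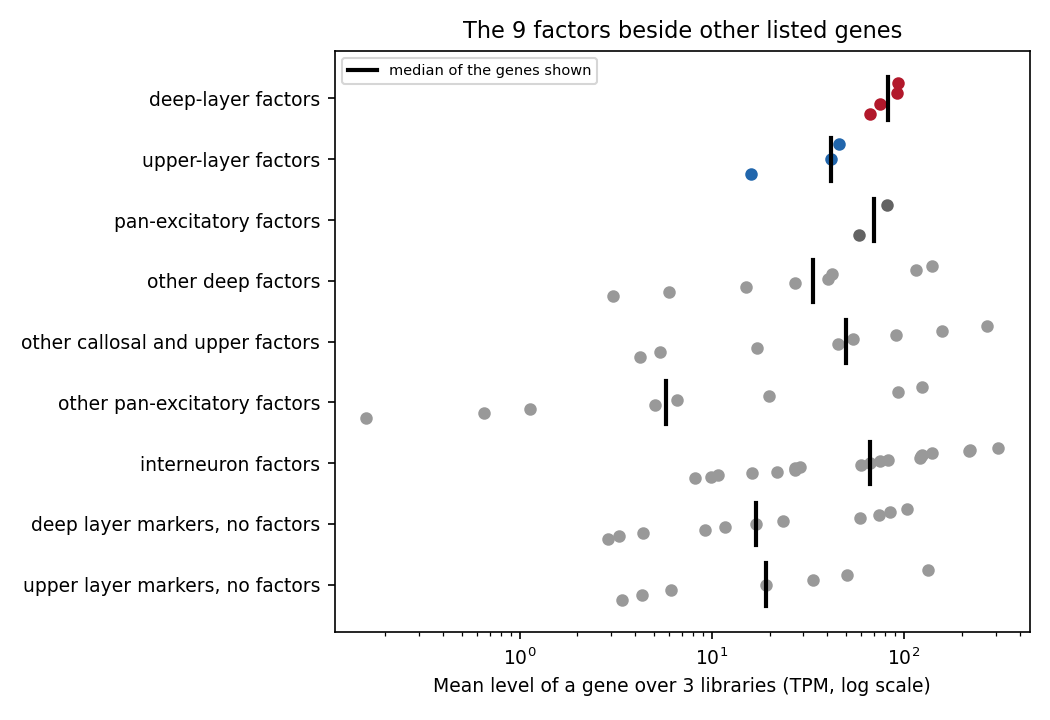
Mean level over the 3 libraries in TPM (x axis, log scale) of each gene, grouped by list, with the 9 factors in colour and the other listed genes in grey. Black bars mark the median of the plotted means. The deep factors cluster between 66.3 and 92.8 TPM, while the grey factor lists, which hold more genes, span a far wider range.

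To place each factor, the closest genes in level were sought among 54 other listed factors, by the root mean square difference in log2(TPM + 0.1) over the 3 libraries. Zbtb18 was closest to Fezf2 (0.11) and to Tbr1 (0.11), and it was among the 2 closest to Neurod6 (0.20). Satb1, a chromatin factor of interneurons derived from the medial ganglionic eminence, was closest to Bcl11b (0.13), ahead of Npas3 (0.21), and also to Tle4 (0.18). Sox5 and Bcl6 were closest to Rorb (0.22 and 0.23) and to Cux1 (0.10 and 0.09). Tle3 and Zfpm2 were closest to Cux2 (0.10 and 0.24), and Pou3f3 and Npas3 to Neurod2 (0.30 and 0.31). A small value here means a like level in 3 libraries and nothing more. These values depend on the exon length used, here merged exons. With the longest transcript as length, the means were 154 TPM for Satb1, 50.2 TPM for Bcl11b and 71.0 TPM for Tle4. Zbtb18 and Fezf2 remained alike, at 87.9 and 88.2 TPM.

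Beside Slc17a7, all 9 factors were lower in 3 of 3 libraries, and all 9 were called, as were 86.6% of all genes. The distance was smallest for Fezf2 (2.07-fold; limma, adjusted p = 0.000950) and largest for Cux2 (11.9-fold; limma, adjusted p = 1.15e-29). In this fit and in that against Rorb, the spread was fully pooled over genes, so every gene had the same standard error. In the fit against Neurod2 the spread was strongly pooled. All differences from Slc17a7 also share the same 3 values of Slc17a7. With an unmoderated spread 7 of the 9 passed, without Fezf2 (adjusted p = 0.0992, limma without moderation) and Tbr1 (adjusted p = 0.0725). The adjusted p of Cux2 was then 0.0115 (limma without moderation). Without length correction the call for Cux1 was lost, at a log2 difference of -0.31 (limma, adjusted p = 0.337).

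Between libraries, Rorb and Neurod2 moved most. With TMM scaling, which equalises libraries by a trimmed mean of log ratios, Rorb stood at 116, 113 and 72.5 scaled CPM in replicates 1, 2 and 3, a 1.60-fold range. Neurod2 stood at 26.9, 38.7 and 42.4, a 1.58-fold range. The coefficient of variation was 24.3% for Rorb and 22.5% for Neurod2, against a median of 17.9% over the 12949 genes with at least 1 CPM on average. The other 7 factors lay below that median, down to 2.78% for Neurod6. Counts of 7 of the 9 factors varied beyond counting error (chi-square test, adjusted over all genes), and so did 74.3% of all genes, so the count is near the background. The exceptions were Tle4 (adjusted p = 0.0749) and Neurod6 (adjusted p = 0.703). With DESeq2 size factors Tle4 passed too, making 8, beside 74.7% of all genes. Without replicate 1 the count was 5, beside 42.5% of all genes, with Tbr1 and Neurod2 lost. Without replicate 3 it was also 5, beside 54.5%, with Rorb and Cux2 lost. Without replicate 2 it was 7, beside 62.2% of all genes, with Tle4 gained and Bcl11b lost.

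Other genes moved with the libraries as well. Slc17a7 was highest in replicate 3, as given above, and the median of the 8 excitatory effector genes was 127, 159 and 222 TPM in replicates 1, 2 and 3. Cck (5019 ± 1063 TPM), a neuropeptide gene also used by interneurons, and Camk2a (2543 ± 302 TPM) were highest, and Slc30a3 (25.1 ± 6.77 TPM) and Slc17a6 (25.03 ± 4.81 TPM) lowest. The sum of the 8 genes ran the other way, from 7499 TPM in replicate 3 to 9719 TPM in replicate 1. Cck and Camk2a set this direction, with 6213 and 2885 TPM in replicate 1 and 4175.5 and 2317 TPM in replicate 3. Slc17a7, Slc17a6, Nrgn, Slc30a3, Camkv and Nptx1 were each higher in replicate 3 than in replicate 1. The summed level of the 19 interneuron factors ran from 1515 TPM in replicate 3 to 1911 TPM in replicate 1. Neurod2 was lowest in replicate 1, as Slc17a7 and the effector median were, whereas Fezf2 and Tbr1 were highest there. The 5 oligodendrocyte markers summed to 140 to 231 TPM and the 5 astrocyte markers to 31.3 to 35.1 TPM, both highest in replicate 1. Among the glial and vascular markers, the myelin gene Mbp stood at 37.3 ± 0.219 TPM, and C1qa and Cldn5 were last. The Mbp level depends on the exon length used, with means of 49.9 TPM for the longest and 325 TPM for the principal transcript. Microglial markers summed to 8.64 to 14.5 TPM and vascular ones to 21.8 to 23.3 TPM. The part of any of these in the levels of Rorb and Neurod2 was not tested.

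**Figure D4:**
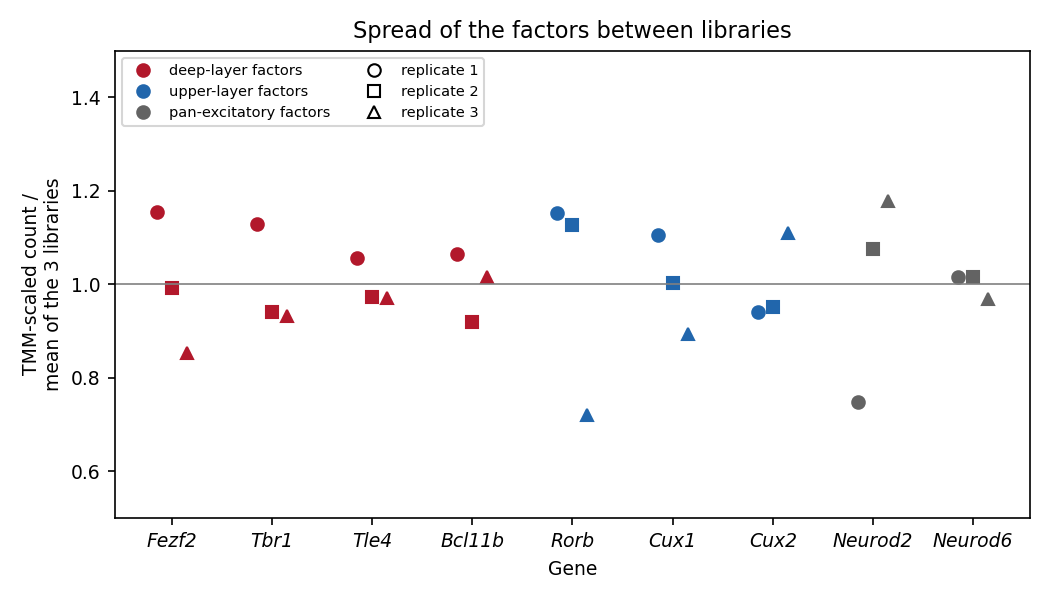
TMM-scaled count of each factor divided by its mean over the 3 libraries (y axis), for replicates 1 (circle), 2 (square) and 3 (triangle). Rorb in replicate 3 and Neurod2 in replicate 1 lie farthest from 1, and the 3 points of Neurod6 lie closest together.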

How the data were processed

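The authors deposited 1 file of raw counts per gene symbol for each of 3 libraries; the submitters' processing notes name STAR 2.0.0e, HTSeq and mm10. Which annotation, counting mode and strand setting were used is not given in the sources used here. Where a gene overlaps another on the opposite strand, its reads may be mixed. Lines that name no gene stayed out: 11.0% to 13.1% fell on no feature, 2.49% to 2.83% were ambiguous and 11.2% to 13.1% had no unique alignment.

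TPM was computed here from the deposited counts and merged exon lengths of GENCODE M21 (GRCm38): 23155 symbols matched directly, 742 through an older symbol, and 8634 were left without a length. Overlaps were measured with bedtools 2.31.1. Differences in log2(TPM + 0.1) between each gene and a reference member were tested against 0 within libraries with limma 3.58.1 (two-sided, genes averaging 1 CPM or more, Benjamini-Hochberg over all genes, threshold 0.05). No count model between groups applies to 1 group. Variation between libraries was tested by chi-square with TMM factors of edgeR 4.0.16, with DESeq2 1.42.0 size factors as an alternative. The members' 369 to 2506 counts per library set their counting error, the only error the chi-square test covers. R 4.3.3, Python 3.11.15, pandas 2.3.3 and matplotlib 3.10.9 were used, and both tests were tested on simulated data.

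The members, lists and named genes (all members, their paralogs, the 2 highest and 2 lowest genes of each list, with glial and vascular markers as 1 list, and the 2 nearest factors in level) were chosen with earlier results of these data known. Emx1, P2ry12, Rgs5 and the GABAergic genes, outside that rule, were named after their values were seen. Some genes the rule picks are not reported here.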

Additional observations from a re-analysis of the deposited data

How the results depend on the processing

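Alternatives were another pseudocount, other exon lengths or none, no filter, an unmoderated fit, other scalings, and leaving out each replicate or factor. The median difference of deep minus upper factors (1.03) was -0.11 without length correction, 1.37 with means over factors, 1.66 without Rorb and 1.60 without Cux1. Without length correction, 4 of the 12 deep-minus-upper pairs were called with the deep factor higher and 5 with the upper factor higher, against 11 and 0. Then these log2 differences also turned: Fezf2 minus Tbr1 to -0.83, minus Tle4 to -0.60, minus Bcl11b to -0.93, minus Rorb to -0.83 and minus Cux1 to -1.57. Tbr1 minus Bcl11b turned to -0.10 and minus Cux1 to -0.73. Tle4 minus Bcl11b turned to -0.33, minus Rorb to -0.23, minus Cux1 to -0.97 and minus Neurod6 to 1.27. Bcl11b minus Cux1 turned to -0.63 and minus Neurod6 to 1.61. Rorb minus Cux1 turned to -0.74, minus Neurod2 to 1.48 and minus Neurod6 to 1.50. Cux1 minus Neurod2 turned to 2.22 and minus Neurod6 to 2.24, and Neurod2 minus Neurod6 to 0.023. With the longest or the principal transcript, Fezf2 minus Tbr1 turned to -0.12, Rorb minus Cux1 to -0.27, Cux1 minus Neurod2 to 0.19 and Tle4 minus Neurod6 to 0.19. Leaving out each replicate gave -0.026 to 0.077 for Fezf2 minus Tbr1, -0.026 to 0.34 for Bcl11b minus Neurod2 and -0.65 to 0.014 for Rorb minus Neurod2. Without replicate 1, Rorb and Cux1 passed as lower than Neurod2 (-0.65 and -0.72). With the reference of each pair kept, the number of pairs called, 22 of 36, ran from 15 to 27 over the alternatives. That of deep-minus-upper pairs with the deep factor higher ran from 9 to 11 where length was kept. With an unmoderated spread 9 of these passed, without Tle4 minus Rorb (adjusted p = 0.0994, limma without moderation) and Tbr1 minus Rorb (adjusted p = 0.0580). Also lost there were Rorb minus Neurod6 (adjusted p = 0.0574, limma without moderation), Rorb minus Cux2 (0.0556) and Fezf2 minus Bcl11b (0.0702). So were Fezf2 minus Neurod2 (0.190), Tbr1 minus Neurod2 (0.169) and Neurod2 minus Neurod6 (0.148), while Tbr1 minus Tle4 passed (0.0361). With no filter, Fezf2 minus Bcl11b, Tle4 minus Rorb, Fezf2 minus Neurod2, Tbr1 minus Neurod2 and Neurod2 minus Neurod6 were lost. Changing the length alone made the reversals with CPM and transcripts. The cause of the others was not tested.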
